A study of Mus musculus with 6 samples.

Results

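The cytosolic ribosomal protein genes encode the protein components of the ribosome that translates nuclear mRNA. They were taken as the protein-coding mouse genes whose symbol starts with Rps or Rpl and goes on with a number, or is Rplp0, Rplp1 or Rplp2, with only the suffixes a, l or x allowed. This gave 81 of 21770 protein-coding genes in the annotation, 31 for the small subunit and 50 for the large one. The occupancy of their promoters was read from CUT&RUN, an assay in which an antibody tethers a nuclease to chromatin and the DNA it releases is sequenced. The cells were male prospermatogonia, the germ cells of the fetal testis, at E16.5, sorted by the green fluorescence of an Oct4-EGFP transgene. Every group shared that transgene (stock B6;129S4-Pou5f1tm2Jae/J, homozygous in the parents), the strain label C57BL/6 and the genotype Taf4b-wildtype, and whether animals were pooled is not given. Of 6 samples, 2 were made with an antibody against TAF4b, 2 with one against the histone mark H3K4me3 and 2 with control IgG, which were not analysed here. Nothing in the labels says that the 2 replicates of an antibody came from separate embryos, so a p-value over libraries measures only the spread between these libraries, which may be technical.

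TAF4b is a germ-cell-enriched paralogue of TAF4, a subunit of TFIID, the general factor that recognises core promoters and positions RNA polymerase II. H3K4me3 marks promoters of active or poised genes. Ribosomal protein genes are transcribed at high rates in nearly all cells. Their mRNAs are known for starting with a run of pyrimidines, the 5′ terminal oligopyrimidine or TOP motif, through which their translation is controlled together, and many of their introns carry small nucleolar RNAs (snoRNAs) that guide modification of ribosomal RNA. The lists used here measure chromatin, not RNA or translation.

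The promoters bound in both TAF4b libraries are shown first, because these peaks were listed in each replicate. The sequences below are the TAF4b replicate 1 peaks of 8 of those genes on the GRCm39 genome, all those with a RefSeq promoter entry and with bases left after the end set here, read 5′ to 3′ on the gene's strand and ended at most 25 bases past the most upstream annotated start. Capitals mark matches on either strand to CCGGAA (the core bound by ETS factors), GGGCGG (the GC box), CCAAT or TATAAA.
Rpl10, chrX:73314260-73314402, plus strand: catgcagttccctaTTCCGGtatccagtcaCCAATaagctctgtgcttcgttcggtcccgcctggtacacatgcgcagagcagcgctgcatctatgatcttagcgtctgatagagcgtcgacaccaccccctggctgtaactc
Rpl6, chr5:121342412-121342554, plus strand: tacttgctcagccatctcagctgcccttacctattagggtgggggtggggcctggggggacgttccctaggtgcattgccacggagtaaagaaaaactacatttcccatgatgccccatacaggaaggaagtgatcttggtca
Rplp2, chr7:141027171-141027298, plus strand: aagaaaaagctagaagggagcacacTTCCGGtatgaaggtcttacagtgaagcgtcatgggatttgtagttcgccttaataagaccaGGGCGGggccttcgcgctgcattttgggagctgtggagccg
Rps12, chr10:23663149-23663252, minus strand: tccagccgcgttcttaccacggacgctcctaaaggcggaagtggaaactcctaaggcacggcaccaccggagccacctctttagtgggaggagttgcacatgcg
Rps15a, chr7:117715437-117715579, minus strand: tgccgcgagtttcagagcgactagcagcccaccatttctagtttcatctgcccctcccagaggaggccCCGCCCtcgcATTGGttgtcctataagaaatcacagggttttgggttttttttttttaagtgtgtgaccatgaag
Rps2, chr17:24938898-24938952, plus strand: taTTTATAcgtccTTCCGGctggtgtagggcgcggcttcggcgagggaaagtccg
Rps26, chr10:128462612-128462735, minus strand: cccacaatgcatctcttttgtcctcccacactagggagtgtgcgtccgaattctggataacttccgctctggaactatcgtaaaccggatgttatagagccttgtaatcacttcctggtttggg
Rps3, chr7:99132921-99133044, minus strand: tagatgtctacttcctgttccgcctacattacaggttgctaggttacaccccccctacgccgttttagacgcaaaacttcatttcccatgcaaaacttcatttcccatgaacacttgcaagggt
The ETS core is in the Rpl10, Rplp2 and Rps2 sequences. The Rpl6, Rps12, Rps26 and Rps3 stretches hold none of the searched letters, so 4 of the 8 carry a match.

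The second set shows start sites, because the start is where the TOP motif lies. These are stretches of RefSeq promoters on build GRCm38.p6, whose coordinates do not apply to the peaks above, with 75 bases before the start and 25 from it. Capitals mark the unbroken run of C or T that holds the annotated start.
Rpl15, chr14:18270962-18271061, minus strand, TAF4b peak in both replicates: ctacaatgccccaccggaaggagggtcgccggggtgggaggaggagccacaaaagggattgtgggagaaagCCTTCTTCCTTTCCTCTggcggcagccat
Rps18, chr17:33955641-33955740, minus strand, TAF4b peak in both replicates: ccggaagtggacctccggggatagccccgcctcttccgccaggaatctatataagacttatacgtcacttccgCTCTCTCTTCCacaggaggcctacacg
Rps6, chr4:86857343-86857442, minus strand, TAF4b peak in replicate 1 alone: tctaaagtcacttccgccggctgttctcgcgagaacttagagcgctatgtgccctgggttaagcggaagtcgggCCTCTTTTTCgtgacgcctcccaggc
Rpl35, chr2:39005107-39005206, minus strand, no TAF4b peak: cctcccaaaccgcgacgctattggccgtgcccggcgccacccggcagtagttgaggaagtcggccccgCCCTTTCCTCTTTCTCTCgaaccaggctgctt
Rpl38, chr11:114668505-114668604, plus strand, no TAF4b peak: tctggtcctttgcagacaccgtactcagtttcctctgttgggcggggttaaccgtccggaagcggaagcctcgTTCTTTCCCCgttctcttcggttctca
The run is 17 bases long in Rpl15, 11 in Rps18, 10 in Rps6, 18 in Rpl35 and 10 in Rpl38. These promoters were picked from the 19 of 72 RefSeq windows of the group whose start lay in a run of at least 6 C or T. Each therefore had to carry a run. Such a run was in 11 of 44 windows with a TAF4b replicate 1 peak and in 8 of 28 without.

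Promoter binding of TAF4b was common at these genes. A promoter interval here is one that the authors' annotation classes as promoter-TSS, assigned to the gene of the transcript named there. Of the 81 genes, 52 (64.2%, 95% Wilson interval 53.3 to 73.8) had a TAF4b promoter peak in replicate 1, beside 22.7% of all 21770 protein-coding genes. In replicate 2, a much shorter list, 12 (14.8%, 8.68 to 24.1) had one, beside 3.14% of all protein-coding genes. All 12 were among the 52 (75.8 to 100%), beside 85.7% of 671 other protein-coding genes with a replicate 2 peak. These intervals cover counting error only, and no set test was made, since genes of a list are not replicates.

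H3K4me3 promoter regions were listed at 66 of the 81 genes (81.5%, 71.7 to 88.4) in replicate 1, beside 44.0% of all protein-coding genes, and at 7 (8.64%, 4.25 to 16.8) in replicate 2, beside 4.13%. Among the 66 genes with the mark in replicate 1, 46 (69.7%, 57.8 to 79.4) had a TAF4b promoter peak in replicate 1, beside 37.9% of the 9569 protein-coding genes with such a region. In TAF4b replicate 2 it was 12 of the 66 (18.2%, 10.7 to 29.1), beside 5.50%. The TAF4b share of ribosomal protein genes thus lay above the background among genes carrying the mark as well. In H3K4me3 replicate 2 it was 7 of the 66 (10.6%), beside 7.55%.

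**Figure D1:**
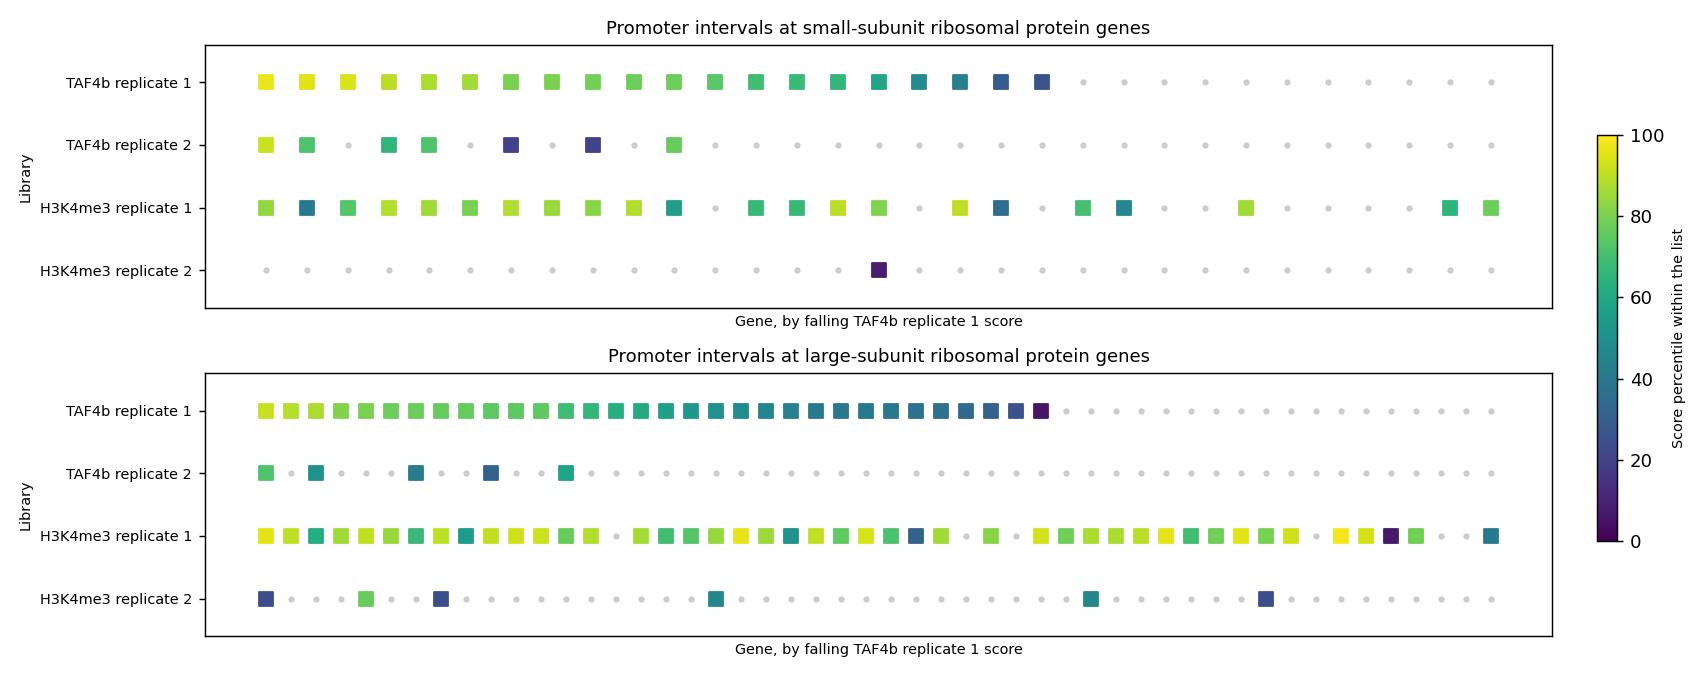
Each column is a gene (small subunit above, large subunit below), each row a library, and squares mark a promoter interval of the deposited class, coloured by its score percentile within that list (100 is the highest score); small grey dots mark genes with none. Genes are in falling order of TAF4b replicate 1 score, without names. TAF4b replicate 1 covers 20 small-subunit and 32 large-subunit genes, and the 12 genes of TAF4b replicate 2 all lie under a replicate 1 square.

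The deposited class names 1 gene per interval, so a promoter shared with a neighbour can be credited to the neighbour. Counted by coordinates, within 250 bp of any annotated start of the gene, 56 of 81 genes (69.1%, 58.4 to 78.1) had a TAF4b replicate 1 peak beside 27.4% of all protein-coding genes, and 13 (16.0%, 9.63 to 25.5) had a replicate 2 peak beside 3.96%. With the canonical start of each gene alone the counts were 52 beside 23.6% and 13 beside 3.52%, and for H3K4me3 75 beside 62.7% and 9 beside 5.11%. The 4 genes with a TAF4b replicate 1 peak by any annotated start but not by the deposited class were Rps16, Rps28, Rpl36al and Rps4l. At Rps16 the peaks of both TAF4b libraries (score 22.3 and 52.6) were credited to AF357399, at Rps28 to Ndufa7, and at Rpl36al to Mgat2. By coordinates H3K4me3 replicate 1 reached 77 of 81 genes (95.1%, 88.0 to 98.1), beside 68.9% of protein-coding genes, and replicate 2 reached 9, beside 6.61%. Rpl35a and Rps21 had no interval in any of the 4 lists by this count.

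List length was then set equal within each antibody. When TAF4b replicate 1 was reduced to its 848 highest-scoring peaks, the length of the replicate 2 list, 5 of the 81 genes (6.17%, 2.67 to 13.6) remained, beside 3.35% of protein-coding genes. Rps12 and Rps15a were among them. At the same length, replicate 2 held 12 (14.8%, 8.68 to 24.1) beside 3.14%. H3K4me3 replicate 1 reduced to 1730 regions held 1 of the genes (1.23%, 0.218 to 6.67), Rpl36, beside 3.42%, and replicate 2, at that length, held 7 (8.64%, 4.25 to 16.8) beside 4.13%. The share over all genes lay within the intervals of the shortened replicate 1 lists and below those of the replicate 2 lists. Among intervals with the upper scores of each list (those at or above its median), TAF4b replicate 1 held 35 genes (43.2%) beside 14.6% of protein-coding genes, and replicate 2 held 8 beside 1.71%. H3K4me3 replicate 1 then held 60 (74.1%) beside 36.02%, and replicate 2 held 3 beside 2.55%.

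Other large complexes gave a range of shares. Among 78 mitochondrial ribosomal protein genes, which serve the separate ribosome of mitochondria, 22 (28.2%, 19.4 to 39.03) had a TAF4b replicate 1 promoter peak and 1 had one in replicate 2. By coordinates those counts were 37 (47.4%, 36.7 to 58.4) and 4. Among 39 proteasome subunit genes 22 (56.4%, 41.0 to 70.7) had one in replicate 1, and by coordinates 27 (69.2%, 53.6 to 81.4), the latter beside 69.1% for the cytosolic ribosomal proteins. In replicate 2, 1 proteasome gene (2.56%, 0.454 to 13.2) had a peak by either count. The differences between these groups were not tested.

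**Figure D2:**
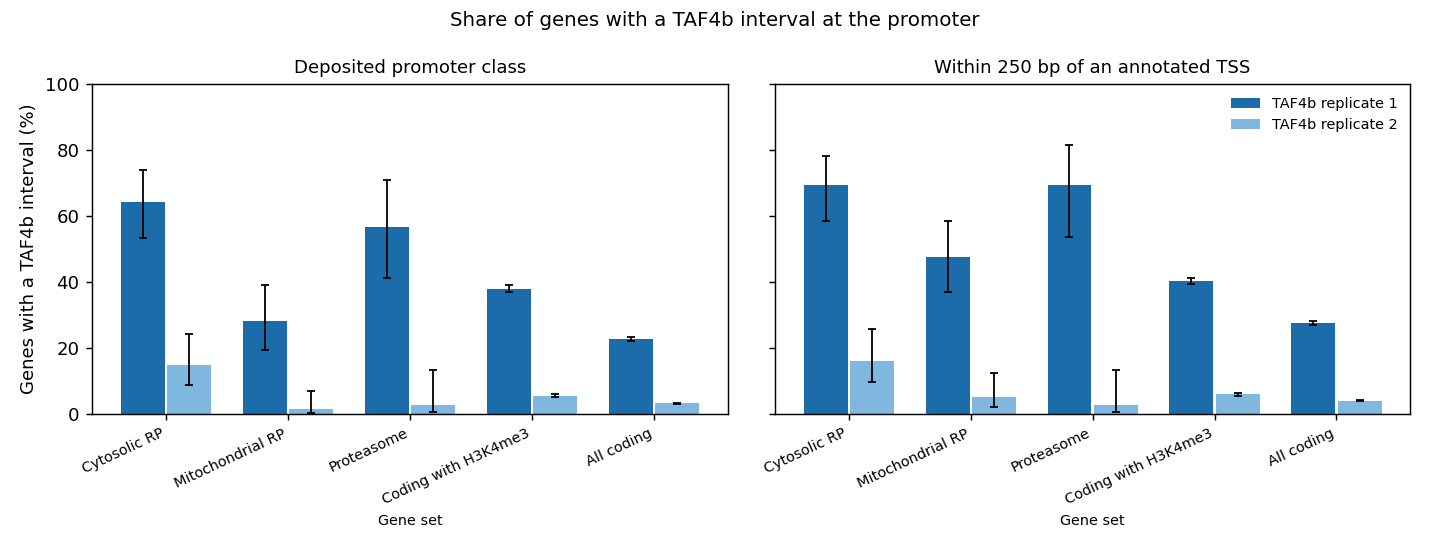
Bars give the percentage of genes in each group with a TAF4b interval (dark, replicate 1; light, replicate 2), counted by the deposited promoter class on the left and by coordinates on the right; error bars are 95% Wilson intervals. Cytosolic ribosomal protein (RP) genes reach 64.2% and 14.8% on the left and 69.1% and 16.0% on the right, beside 22.7%, 3.14%, 27.4% and 3.96% of all protein-coding genes.

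Constituents of the ribosome that the symbol rule leaves out include Rpsa and Rps3a1 of the small subunit, Fau, which encodes a ribosomal protein fused to a ubiquitin-like protein, and Rack1, a scaffold on the small subunit. Rpsa (score 19.4) and Rps3a1 (score 14.4) had a TAF4b replicate 1 promoter peak, and Fau had a peak by coordinates. None of these genes had a TAF4b replicate 2 peak.

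Genes that work with the ribosome were followed in 3 lists, counted by the deposited class unless stated. Of 10 genes for elongation factors and other TOP mRNAs, all 10 had a TAF4b replicate 1 promoter peak (72.2 to 100%), and Eef2, Eef1g and Npm1 (30%, 10.8 to 60.3) also had one in replicate 2. The shares over all protein-coding genes, 22.7% in replicate 1 and 3.14% in replicate 2, stand beside the counts of all 3 lists. Eef2, which moves the ribosome along the mRNA, had a score of 22.8 in replicate 1 and of 93.1, rank 94 of 848, in replicate 2. Of 21 ribosome assembly genes 12 (57.1%, 36.5 to 75.5) had a replicate 1 peak, and Nhp2, a protein of the snoRNA particles that make pseudouridine, was the 1 gene with one in both (4.76%, 0.846 to 22.7 in replicate 2), with scores of 37.2 and 68.8. Of 11 RNA polymerase I genes 7 (63.6%, 35.4 to 84.8) had a replicate 1 peak. Polr1d, a subunit it shares with RNA polymerase III, was the 1 gene with one in both (9.09%, 1.62 to 37.7 in replicate 2). By this class the replicate 2 intervals of the assembly and polymerase lists hold the share over all genes. By coordinates the assembly counts were 15 of 21 in replicate 1 and 3 of 21 (14.3%, 4.98 to 34.6) in replicate 2. The polymerase counts were 8 of 11 and 2 of 11 (18.2%, 5.14 to 47.7). Both replicate 2 intervals then lay above the 3.96% of all protein-coding genes (27.4% in replicate 1). With the canonical start alone, the polymerase count in replicate 2 was 1.

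The 12 genes bound in both replicates included 7 of the small subunit and 5 of the large one. Score and rank are given within each list, since the scaling of the authors' scores between lists is not stated. On the small subunit, Rps12 scored 35.2 (rank 368 of 7861) in replicate 1 and 72.9 (rank 214 of 848) in replicate 2, and Rps15a scored 29.3 and 68.8. Rps3, which lines the mRNA entry channel, scored 27.8 and 72.9. Rps26, which contacts mRNA at the exit channel, scored 22.8 and 76.9 (rank 183). Rps18 scored 23.8 and 48.6, and Rps2 scored 23.3 and 48.6, the lowest of the 12 in replicate 2. In both replicates the start nearest to the peak was that of Vps52 at Rps18 and of Snhg9 at Rps2.

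On the large subunit, Rpl10, an X-linked gene whose product is added late in large-subunit assembly, scored 27.8 and 60.7. Rpl6 scored 22.8 and 56.7. Rpl15 scored 21.8 and 52.6, with the start of the divergent gene Nkiras1 nearest to the peak in both replicates. Rplp2, a protein of the stalk that recruits elongation factors, scored 19.9 and 64.8, so it was the lowest of the 12 in replicate 1 but not in replicate 2. All 12 peaks of replicate 2 shared bases with a replicate 1 peak and with an H3K4me3 replicate 1 region (75.8 to 100% each). Of 673 replicate 2 peaks at other protein-coding genes, 82.6% and 91.7% did, within that interval.

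Presence in replicate 2 went with the replicate 1 score. The 12 genes had replicate 1 scores of 19.9 to 37.7 with a median of 25.8, and the other 40 had scores of 7.94 to 34.2 with a median of 16.7. The ranges overlapped, and Rpl22 (28.8) and Rps29 (26.8) were absent from replicate 2 despite high scores. Of protein-coding genes with a replicate 1 peak, 11.9% also had one in replicate 2, and of the ribosomal protein genes 23.1% (12 of 52, 13.7 to 36.1) did. Among genes scoring above the median of all protein-coding genes in replicate 1, 12 of 29 ribosomal protein genes (41.4%) and 528 of 2347 others (22.5%) were found again.

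**Figure D3:**
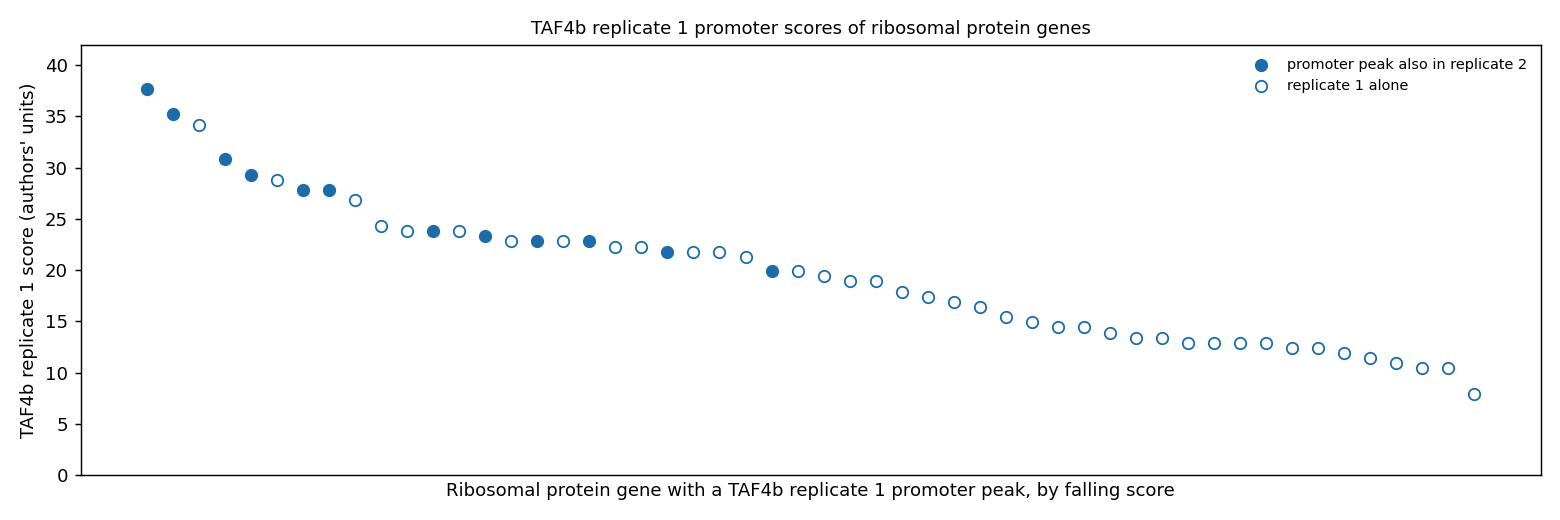
Points give the authors' TAF4b replicate 1 score at the 52 ribosomal protein genes with a promoter peak, in falling order; filled points have a promoter peak in replicate 2 too. The filled points lie between 19.9 and 37.7, and no gene scoring below 19.9 is filled.

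The lowest replicate 1 scores were at Rpl37a (7.94, rank 7270), Rps23 and Rpl19 (both 10.4), Rps10 (10.9) and Rpl39 (11.4). None of these had a TAF4b peak in replicate 2. Over all 54 member peaks the median score was 19.7 and the median score percentile within the list 68.5, beside 17.4 and 60.7 for the peaks of other protein-coding genes. In replicate 2 the medians were 66.8 and 61.8, beside 60.7 and 50.8.

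The 2 subunits had like shares in TAF4b replicate 1 by the deposited class, with a higher median score for the small one. There 20 of 31 small-subunit genes (64.5%, 46.9 to 78.9) and 32 of 50 large-subunit genes (64.0%, 50.1 to 75.9) had a promoter peak. By coordinates the counts were 23 of 31 (74.2%, 56.8 to 86.3) and 33 of 50 (52.2 to 77.6%), and at or above the median score of the list 16 of 31 (51.6%) and 19 of 50. Over all protein-coding genes the shares were 22.7% by the deposited class, 27.4% by coordinates and 14.6% at or above the median score. The median score was 22.8 for the small subunit (10.4 to 37.7) and 16.9 for the large one (7.94 to 30.8). In replicate 2 the counts were 7 of 31 (22.6%, 11.4 to 39.8) and 5 of 50 (10%, 4.35 to 21.4), beside 3.14% of all protein-coding genes. The median scores there were 72.9 and 60.7. The H3K4me3 replicate 1 scores lay the other way, with medians of 88.0 for 22 small-subunit and 102.2 for 44 large-subunit genes. The ranges overlapped in these 3 libraries. In H3K4me3 replicate 2 the only small-subunit gene of the deposited class scored 96, and 6 large-subunit genes scored 101.1 to 136.4. By coordinates Rps3, with a region scoring 121.3, joined it, within the large-subunit range. The differences between subunits were not tested. Of the stalk proteins, Rplp1 (score 16.4) and Rplp2 had a TAF4b peak and Rplp0 had none, while all 3 had an H3K4me3 replicate 1 region.

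The H3K4me3 regions of the group were of ordinary size for promoters. In replicate 1 the 67 regions had a median width of 1314 bp (500 to 2662), beside 1275 bp for other protein-coding promoters, and a median score of 96.9 beside 83.5. In replicate 2 the 7 regions lay the other way, with a median score of 101.1 beside 111.2 and a median score percentile of 24.1 beside 46.4. Among these 67 regions, credited to the genes by the deposited class, that of Rpl36 was the widest, 2662 bp, with the highest score, 184.8 (rank 1084 of 64891), and Rpl36 had no TAF4b peak. Rpl38 was lowest, with 500 bp and a score of 20.9. The TAF4b and H3K4me3 scores of the 46 genes with both had a Pearson's r of -0.01 and a Spearman's rho of 0.02, a description across genes of 1 pair of libraries, which are not independent replicates.

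In H3K4me3 replicate 2 the 7 genes included Rpl13 (score 136.4, rank 377 of 1730), Rpl14 and Rpl11 (both 111.2), and Rpl32 and Rpl37 (both 101.1). Of these, Rpl11 and Rpl32 had no TAF4b peak in either replicate. Rpl11 binds the p53 regulator Mdm2 when ribosome assembly fails, and its partner in that role, Rpl5, had a TAF4b replicate 1 peak with a score of 12.9. By coordinates Rpl19 and Rps3 joined the list, the Rps3 region having been credited to Snord15a, a snoRNA gene. Rps3 then had an interval in all 4 libraries. Its TAF4b replicate 1 peak lay on chromosome 7 at 99132902 to 99133044 and shared bases with its H3K4me3 replicate 2 region at 99132331 to 99132967 (score 121.3), and its H3K4me3 replicate 1 region had a score of 101.4.

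Genes without an H3K4me3 promoter region in replicate 1 numbered 15. Of these, Rps6, Rps20, Rps23, Rpl17, Rpl19 and Rpl27 had a TAF4b replicate 1 promoter peak, with Rps6, the target of the S6 kinases, at 21.3, Rpl27 at 17.9, Rps20 at 14.4, Rpl17 at 11.9 and both others at 10.4. By coordinates 11 of the 15 did carry H3K4me3, in regions of another class or named for another transcript. The exceptions were Rps23, Rps28, Rps21 and Rpl35a, of which Rps23 and Rps28 (score 10.4) held a TAF4b peak. Rpl3l, Rpl41, Rps16, Rps27, Rps4l and Rps4x make up the rest of the 15. At Rpl41, whose promoter lies beside Zc3h10, the H3K4me3 region was credited to Zc3h10 and had a score of 226.6 (rank 450), above that of Rpl36, and the TAF4b replicate 1 interval near it (score 7.94) was classed as a transcript end.

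Genes with an H3K4me3 region by coordinates and no TAF4b peak by coordinates in either replicate numbered 23 of 77 (29.9%, 20.8 to 40.8), beside 61.2% of the 14993 protein-coding genes with such a region (42.2% of all protein-coding genes). They included Rpl36, Rpl21, Rpl31, Rpl35, Rps9, Rps14, Rps15, Rps25 and Rplp0. Among the genes with an H3K4me3 promoter region of the deposited class, the 46 with a TAF4b replicate 1 peak had a median H3K4me3 score of 98.4 (32.8 to 155.0) and the 20 without had 85.0 (20.9 to 184.8). The median region widths lay the other way, at 1287.5 bp (500 to 2270) with a peak and 1493 bp (500 to 2662) without. Absence of a peak in these lists is not absence of binding, since the depth behind the lists is unknown.

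The 6 paralogues in the group, Rpl3l, Rpl10l, Rpl39l, Rps27l, Rpl36al and Rps4l, differed in their marks. Rpl10l, an autosomal copy of Rpl10 needed in male meiosis when the X chromosome is silent, had a TAF4b replicate 1 promoter peak on chromosome 12 at 66331198 to 66331340, at a deposited distance of -94 bp, with a score of 12.4 (rank 4789), and a narrow H3K4me3 region of 500 bp with a score of 32.8. Its parent Rpl10 scored 27.8 for TAF4b and 58.1 for H3K4me3. Rpl39l, a testis-expressed copy of Rpl39, had an H3K4me3 region with a score of 83.5 and no TAF4b peak, while Rpl39 itself had both (11.4 and 92.4). Rps27l had both marks (18.9 and 114.8), Rpl36al had H3K4me3 (134.2) with the TAF4b peak credited to Mgat2 (18.4), and Rpl3l, known from striated muscle, had an H3K4me3 region near its start (score 90.9, classed as intron) and no TAF4b peak. Without the 6 paralogues, 66.7% of the remaining 75 genes had a TAF4b replicate 1 peak and 16.0% a replicate 2 peak.

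On the X chromosome, Rpl10, Rpl36a (TAF4b score 13.4) and Rpl39 had a TAF4b replicate 1 peak and Rps4x had none. Their H3K4me3 replicate 1 scores were 58.1, 47.7 and 92.4, and a region classed as intron at Rps4x scored 44.7. Rpl10 alone of the 4 was in TAF4b replicate 2.

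Rpl4 and Rps19 each held 2 TAF4b replicate 1 promoter peaks. At Rpl4, which starts 232 bp from the divergent gene Zwilch, the peaks had scores of 24.3, nearest to Zwilch, and 15.9, nearest to Rpl4. At Rps19, mutated in Diamond-Blackfan anaemia, the scores were 23.8 and 23.3, at deposited distances of -307 and -128 bp. A TAF4b replicate 1 peak in an intron of Atg10 (score 7.44) had Rps23 as its nearest start, at 69675 bp. Of 8 genes with a divergent protein-coding partner whose start lay within 1000 bp, 7 (87.5%, 52.9 to 97.8) had a TAF4b replicate 1 peak, as did 45 of the 73 without (61.6%, 50.2 to 71.9), beside 22.7% of all protein-coding genes. In replicate 2 the counts were 2 of 8 and 10 of 73, beside 3.14%. The intervals of the 2 sets overlap. These counts use the deposited class. The 7 include Rpl18, whose peak centre lay at -2756 bp from its canonical start. Rps28, counted as lacking a peak, had one by coordinates that was credited to its partner Ndufa7. Of 28 genes with an annotated snoRNA gene inside, 20 (71.4%, 52.9 to 84.7) had a TAF4b replicate 1 peak, and of the other 53, 32 (60.4%, 46.9 to 72.4) did. In replicate 2 the counts were 7 of 28 and 5 of 53.

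TAF4b peaks sat just upstream of the annotated starts. By the deposited distance, which runs from the interval centre to the nearest annotated start, the 54 member peaks of replicate 1 had a median of -40 bp (-307 to 30), with 83.3% upstream, beside -50 bp and 81.1% for other protein-coding promoters. In replicate 2 the 12 peaks had a median of -55 bp (-136 to 59), beside -73 bp. For H3K4me3 the medians were -7 bp in replicate 1 and -85 bp in replicate 2. The mean over libraries was -47.5 ± 10.6 bp for TAF4b and -46.0 ± 55.2 bp for H3K4me3 (SD, n = 2 each), a difference of -1.5 bp (exact two-sided permutation p = 1). With 2 libraries against 2 the smallest possible p is 0.3333.

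That deposited start belonged to another gene in 6 of the 54 TAF4b replicate 1 intervals and 3 of the 12 in replicate 2. Measured to the gene's own canonical start, a setting chosen after seeing the data, the medians were -30.5 and -87.5 bp for TAF4b and 33.5 and 108 bp for H3K4me3, so that both TAF4b medians lay upstream and both H3K4me3 medians downstream. The difference was -129.8 bp (exact two-sided permutation p = 0.3333). In replicate 2 all 12 TAF4b centres lay upstream of the canonical start, and in replicate 1 36 of 52 did. The farthest was Rpl18, whose peak lay at -2756 bp from its canonical start and at -58 bp from the nearest start, that of the divergent gene Sphk2.

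**Figure D4:**
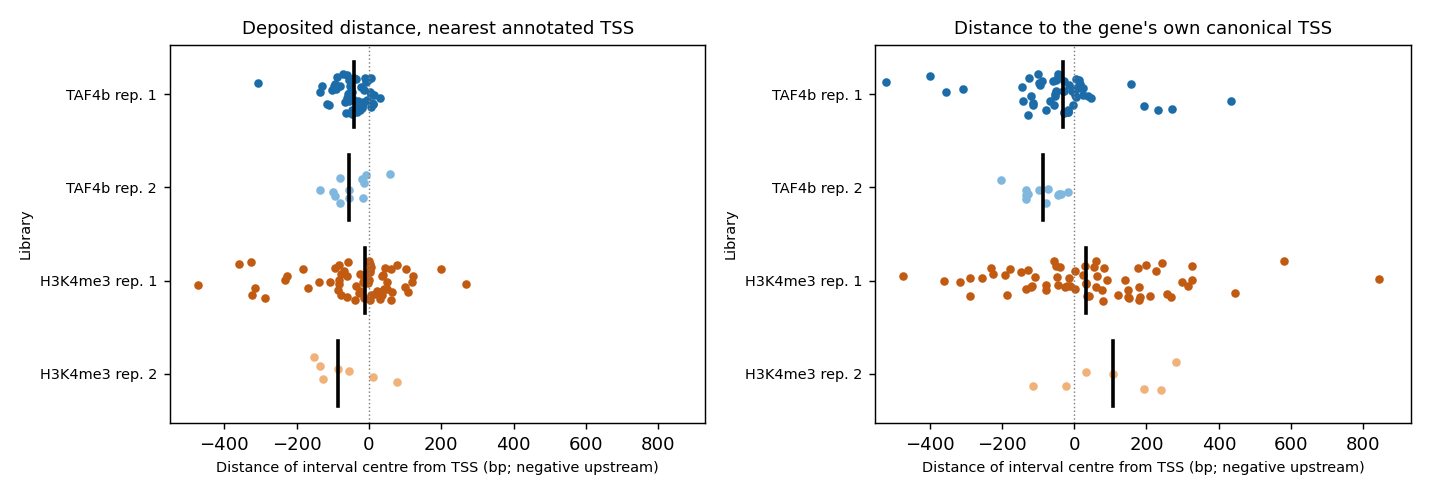
Each point is the highest-scoring promoter interval of a ribosomal protein gene, placed by the distance of its centre from a start site (TSS) in bp, negative upstream; black bars are medians, and the vertical scatter carries no value. On the left the distance is to the nearest annotated start, and on the right to the gene's own canonical start, where TAF4b medians are -30.5 and -87.5 bp and H3K4me3 medians 33.5 and 108 bp; Rpl18 (-2756 bp) is drawn at the left edge.

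The share of genes occupied did not separate the antibodies. It averaged 39.5 ± 34.9% for TAF4b and 45.1 ± 51.5% for H3K4me3 (SD, n = 2 each), a difference of -5.56 percentage points (exact two-sided permutation p = 1), smaller than the spread between replicates. The difference was -17.3 points in replicate 1 and 6.17 points in replicate 2.

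Motif shares under the peaks were compared with those at other TAF4b promoters. The ETS core CCGGAA was in 19 of 54 member peaks of replicate 1 (35.2%, 23.8 to 48.5), beside 20.2% of 5190 peaks at other protein-coding promoters. In replicate 2 it was in 7 of 12 (58.3%, 32.0 to 80.7), beside 19.5% of 673. The GC box went the other way, at 46.3% (33.7 to 59.4) beside 57.7% in replicate 1 and 41.7% (19.3 to 68.0) beside 71.8% in replicate 2. The CCAAT box was in 27.8% beside 37.7% and in 41.7% beside 58.4%. TATAAA was in 1 member peak of each library (1.85% and 8.33%, beside 1.70% and 2.67%), which is that of Rps2 in replicate 1. These shares are descriptions, with no test, and a match is not evidence of a bound factor.

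**Figure D5:**
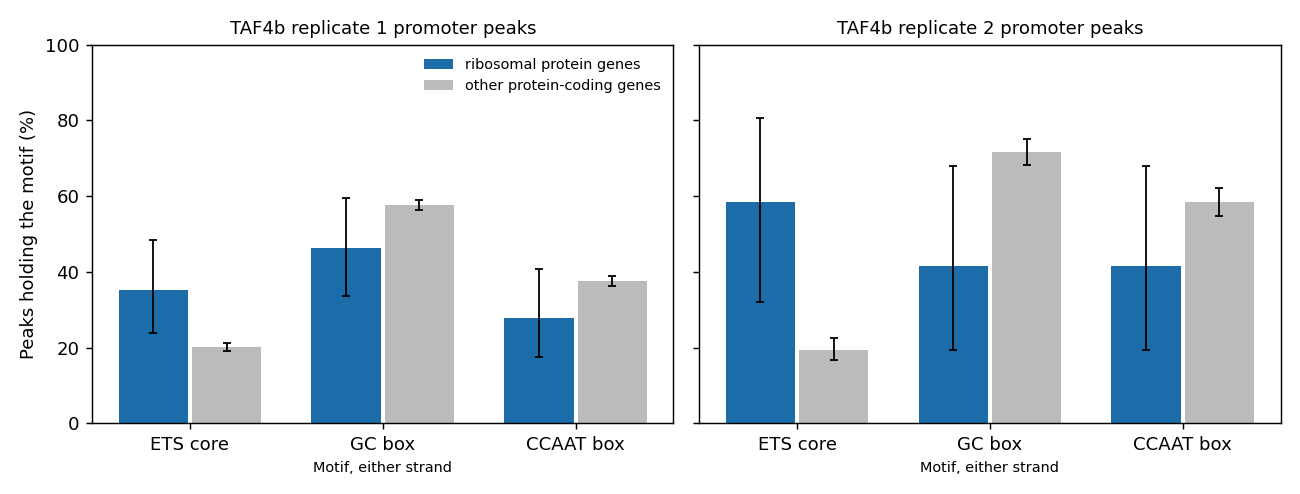
Bars give the percentage of TAF4b promoter peaks that hold each motif on either strand, for ribosomal protein genes (blue) and other protein-coding genes (grey), with 95% Wilson intervals; replicate 1 is on the left and replicate 2 on the right. The ETS core is at 35.2% and 58.3% of ribosomal protein peaks, beside 20.2% and 19.5% of others, and the GC box is lower in both panels.

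RefSeq promoter windows of 300 bases, 250 before and 50 after the start, matched 60 of the 81 genes and gave 72 windows. The genes without an entry included Rpl17, Rpl21, Rpl23a, Rpl29, Rpl3, Rpl30, Rpl32, Rpl36, Rpl7, Rpl8, Rplp1, Rps14, Rps20, Rps27a, Rps29 and Rps4l. The ETS core was in 33 of the 72 windows (45.8%, 34.8 to 57.3), beside 20.1% of all 18909 protein-coding windows. It was in 47.7% of member windows with a TAF4b replicate 1 peak and in 42.9% of those without, beside 29.5% of the 5030 protein-coding windows with a TAF4b replicate 1 promoter peak. The GC box was in 58.3% of member windows (46.8 to 69.0), an interval that holds the 50.5% of all windows. Among windows with a TAF4b replicate 1 peak it was in 54.5% of member windows (40.1 to 68.3), beside 66.5% of all such windows. An exact match to a YY1-type motif was in 4 of 28 member windows without a TAF4b peak (14.3%, 5.70 to 31.5), beside 1.35% of all windows. It was in 0 of 44 member windows with a peak (0 to 8.03%). That interval holds the 2.31% of all protein-coding windows with a TAF4b replicate 1 peak. An exact match to an NRF1 motif was in 2 of 72 windows, beside 1.46%.

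At the start itself, 27.8% of member windows began with C and 18.1% with A, beside 14.3% and 34.4% of all protein-coding windows. The start lay in a run of at least 6 pyrimidines in 19 of 72 windows (26.4%, 17.6 to 37.6), beside 6.40%. With a TAF4b replicate 1 peak the count was 11 of 44 and without one 8 of 28, and the pyrimidine starts printed above come from both kinds. RefSeq starts can be off by some bases, so a start outside such a run does not show that the mRNA lacks one.

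Over the whole study, the lists held 7861 and 848 TAF4b peaks and 64891 and 1730 H3K4me3 regions, and total reads are not given. Promoters of germ cell markers carried a TAF4b replicate 1 peak in 4 of 10 cases and those of 19 markers of Sertoli, Leydig, endothelial and macrophage cells in 0 cases, beside 22.7% of protein-coding genes. H3K4me3 replicate 1 regions were at 5 of 10 germ cell markers and at 7 of 19 somatic markers, 5 of them among the 6 Sertoli markers, beside 44.0%, and no marker had a promoter interval of the deposited class in either replicate 2 list. By coordinates TAF4b replicate 1 peaks were at 4 of 10 germ cell and 1 of 19 somatic markers, and H3K4me3 replicate 1 regions at 8 of 10 and 9 of 19, beside 68.9%. By that count 1 somatic marker had an H3K4me3 replicate 2 region. What part other cells of the gonad had in the ribosomal protein results, whose genes all cell types express, was not tested.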

How the data were processed

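CUT&RUN libraries were made from sorted mouse prospermatogonia, and 4 deposited lists of intervals, 1 per library, were analysed. Per the submitters' processing notes, bcl2fastq 2.20, Trim Galore 0.5.0, FastQC 0.11.5, Bowtie2 2.3.0, SAMtools 1.9 and HOMER 4.10 were used with GRCm39. Per the file headers, the H3K4me3 regions were annotated with HOMER's annotatePeaks against Ensembl 103, while the TAF4b headers name no build. The settings of peak calling and any control are not given in the sources used here. The authors' peak score per interval was deposited with no stated scaling and was ranked within 1 list only. TAF4b lists also hold a focus ratio, a fraction that the authors deposited and that was not used. No interval lay past the end of its GRCm39 chromosome.

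Transcript identifiers were matched to GENCODE M39, and 64, 8, 391 and 13 annotated intervals (TAF4b 1 and 2, H3K4me3 1 and 2) had no match. Members and lists were chosen with earlier results of these data known. Intervals overlapped when sharing 1 bp. Shares carry 95% Wilson intervals, and group differences an exact permutation test over libraries (python 3.11.15, scipy 1.17.1), checked on simulated intervals. Genes named were those with a TAF4b replicate 2 or H3K4me3 replicate 2 promoter interval, the 5 highest and 5 lowest TAF4b replicate 1 scores, genes lacking H3K4me3, paralogues, X-linked genes, and genes with several or non-promoter TAF4b peaks. Results for some genes are not reported here. Other genes named were chosen after their values were seen. Depth is unknown, because read totals were not given.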

Additional observations from a re-analysis of the deposited data

How the results depend on the processing

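Of 54 alternative values, 42 kept their direction or moved by less than their interval or the spread between replicates, 8 moved and 4 reversed. Counting by coordinates raised the H3K4me3 replicate 1 share to 95.1% (any annotated start) and 92.6% (canonical start, added after seeing the data). Among intervals at or above each list's median score the share fell to 43.2% in TAF4b replicate 1 and 3.70% in H3K4me3 replicate 2, and with equal list sizes to 6.17% in TAF4b replicate 1 and 1.23% in H3K4me3 replicate 1, because fewer intervals were counted. Equal sizes also reversed the difference in share between antibodies, to 5.56 points, and keeping scores at or above the median reversed the difference in median distance, to 8.75 bp. The cause was not tested. Ranked among promoter intervals alone, the median score percentile fell from 84.1 to 64.3 in H3K4me3 replicate 1, the largest shift under that ranking though within the spread between replicates, and from 68.5 to 60.01 in TAF4b replicate 1. It was 68.6 in TAF4b replicate 2 for peaks within 1000 bp of a start. With 1 replicate left out, the difference in share ranged from -17.3 to 6.17 points and the difference in distance from -33 to 30 bp, so both changed sign without replicate 1. With the replicate number as a block both differences were unchanged, -5.56 points and -1.5 bp (sign-flip p = 1 each, exact). Same-numbered libraries deviated together across 21770 genes (r = 0.239), in 1 pair of groups, which does not show that they share cells. Read depth, not given, limits every statement on absent peaks.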

Other observations

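Processed pseudogenes are abundant copies of ribosomal protein mRNAs that lack the parent's promoter. Among 317 annotated pseudogenes whose symbol is that of a ribosomal protein with the ending -ps, 0 had a TAF4b replicate 1 promoter peak and 1, Rps4x-ps, had one in replicate 2. H3K4me3 replicate 1 listed a promoter region at 23 of them (7.26%, 95% Wilson interval 4.88 to 10.7) and H3K4me3 replicate 2 at 0. Over all protein-coding genes the shares were 22.7% and 3.14% for TAF4b and 44.0% and 4.13% for H3K4me3. Counted by a nearest start within 1000 bp, the number in H3K4me3 replicate 1 was 65, and those in TAF4b stayed at 0 and 1. The share over other kinds of pseudogene is not given. Many ribosomal protein pseudogenes carry other kinds of symbol and were not counted, and reads from near-identical copies cannot always be placed.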
